A study of Mus musculus with 5 samples.

Results

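Chronic hypoxia and a mutant BMP receptor are 2 ways of raising pulmonary pressure in mice, and the series set them side by side in whole lung with 5 arrays, 1 pool of RNA for each condition. The comparison described here was of the hypoxic pool with the 2 transgenic pools whose pressure was normal, so it used 3 of the 5 arrays, chosen by their titles. FVB/N mice, 8 weeks old and kept in hypoxia for 4 weeks, made up the hypoxic pool, and their right ventricular pressure was 50 ± 8 mmHg. The first control, called the uninduced pool below, came from SM22-tet-BMPR2delx4+ mice given no doxycycline. These mice carry a dominant-negative form of BMPR2 that doxycycline would switch on in smooth muscle, where the SM22 promoter is active. The second, called the activator pool below, came from SM22-rtTA mice on doxycycline, which carry the doxycycline-dependent activator without the mutant receptor. Both controls were at 30 ± 3 mmHg, and their titles give 8 weeks without saying whether it is an age or a treatment time. The kind of error after each pressure, the number of animals in a pool and the strain of the transgenic mice are not stated. The hypoxic mice are labelled with neither a transgene nor doxycycline, so hypoxia, genotype and drug cannot be told apart in this comparison.

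In tissue short of oxygen, prolyl hydroxylases stop marking hypoxia-inducible factors (HIF) for destruction, and these factors bind ACGTG cores in DNA and switch on genes of glycolysis, vessel growth and iron handling. In the lung, chronic hypoxia narrows and thickens small pulmonary arteries, with endothelin, nitric oxide and BMP signals among the regulators of vessel tone and growth. Lung tissue also holds resident macrophages and passing blood cells, and a dissected lung can carry neighbouring tissue with it.

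Values are deposited probe-set intensities, shifted on the log2 scale so that the arrays shared a median over probe sets in the upper part of every array. The noise floor was the median of all shifted values, 276.2 in scaled intensity, and any value below was set to it. Of 12393 genes, 8042 exceeded the floor in 1 or more of the 3 pools and count as measured. A gene at the floor in both controls thus counts only through the hypoxic pool, which bears on the counts and medians of the gene lists. A gene was called higher where its hypoxic value was above both controls, above the floor and at least 1.5-fold above the mean of the controls, which is the mean of their log2 values, and lower in the mirror case. With 1 array for each condition there was no replicate and no test, and the number of arrays limits the precision. A fold that rests on a value at the floor is a bound and is written "at least". Where values of both controls follow each other, the uninduced pool comes first.

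The pools differed in ways that bear on every comparison. The wild-type FVB/N pool, which shares strain and age with the hypoxic pool, was not a control here. Its 8 measured kidney and adrenal markers summed to 33354, against 7272 to 8599 in the other 4 pools. Its value, given beside many of the genes, is a further normal-pressure reading, and comparisons with it use the same control arrays. The spread of the hypoxic array was the narrowest of the 3, with an interquartile range of 2.45 on the log2 scale against 2.83 and 2.79, and 9.85% of its probe sets sat at the deposited lower limit of 50, against 12.5% and 12.0%. Sex-linked genes differed as well, since Xist, the RNA that coats the silent X chromosome of females, was 1403 against 689 and the floor, and the Y-linked Eif2s3y was at the floor against 366 and 394. The sexes in each pool are not stated, and the part of array spread and sex in the differences below was not tested.

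The hypoxic pool had 1043 genes called higher, 13.0% of those measured, and 357 called lower, 4.44%. Every count of called genes in a list below stands against these shares, and a count near them sets a list apart in no way. The direction of this split rests on the scaling. It was 743 higher and 854 lower with the values as deposited, 732 and 853 with a shared median over all probe sets, and 960 and 474 after quantile normalization. Under all 5 scalings, 729 genes were called higher and 354 lower. The values as deposited and the shared median over all probe sets each moved the median log2 ratio of measured genes to -0.15, from -0.01. Of the higher calls, 224 had both controls at the floor and 170 had 1 control there. Low intensities gave more calls: among genes above the floor in all 3 pools, split into 4 equal classes by mean intensity, 14.6% of the dimmest class were called higher and 2.91% of the brightest, and 5.17% and 2.65% were called lower. The controls themselves were at least 1.5-fold apart in 645 genes, 8.02% of those measured. The SD of their log2 ratio was 0.34, against 0.48 for hypoxia over the uninduced pool and 0.46 for hypoxia over the activator pool. Leaving size aside, 39.1% of measured genes were above both controls and 35.2% below both. By a stricter rule, at least 2-fold beyond each control by itself, 219 genes (2.72%) were higher and 13 (0.162%) lower. For most genes called in either direction, the wild-type pool lay on the same side of both controls as the hypoxic pool; both readings use the same 2 control arrays. The hypoxic value was beyond wild type too for 828 of the higher calls (10.3% of measured genes) and 218 of the lower calls (2.71%). At least 1.5-fold beyond each of the 3 normal-pressure pools were 157 genes higher and 48 lower.

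**Figure D1:**
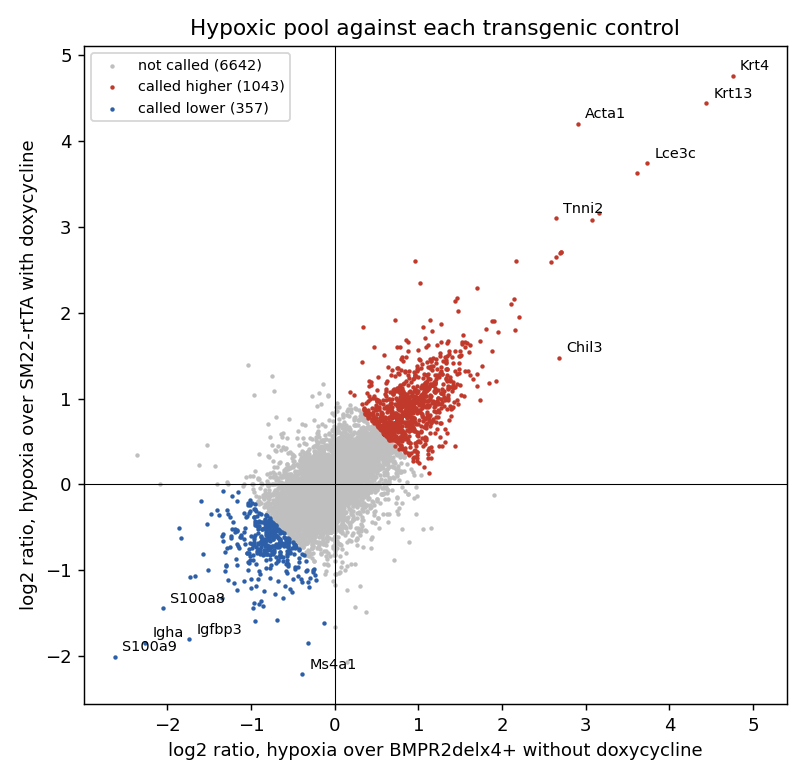
Each point is 1 of the 8042 measured genes, placed by its log2 ratio of the hypoxic pool over the BMPR2delx4+ pool without doxycycline (horizontal) and over the SM22-rtTA pool with doxycycline (vertical). Red points are the 1043 genes called higher and blue points the 357 called lower; the farthest red points include Krt4, Krt13 and Acta1, and the farthest blue points S100a9, Igha and S100a8.

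The highest ratios were of genes of stratified squamous epithelium, the layered lining of the oesophagus, forestomach, upper airway and skin. The list had 20 measured genes, and 15 were called higher (14 under the values as deposited and under the shared median over all probe sets) and 0 lower, with a median log2 ratio of 1.60 (values at the floor entering as bounds) against -0.01 over all measured genes. Krt4, a keratin of moist squamous linings, was 7459 against the floor in both controls, at least 27.0-fold higher. Its usual partner Krt13 was 5984 against the floor in both controls, at least 21.7-fold higher. Krtdap, a secreted protein of differentiating keratinocytes, was 3395 against the floor in both controls. These 3 genes were at the floor in wild type too, so the hypoxic pool alone of the 4 showed a signal. The basal keratins were also higher, with Krt15 at 971 against the floor in both controls. Krt14 was 869 against 296 and the floor, and wild type lay between at 615. The cornified envelope, the cross-linked shell of the outermost cells, was represented by Lce3c at 3688 against the floor in both controls. Sprr3, a proline-rich envelope protein of the oesophagus, was 1807 against the floor in both controls. Loricrin (Lor), a main envelope protein of skin, was 3917 against 886 and 877, 4.44-fold higher, but 1 of its 3 probe sets had the opposite sign and their mean gave a log2 ratio of -0.15. Mt4, a metallothionein of squamous cells, was 1186 against the floor in both controls, and the calmodulin-like Calml3 was 784 against the floor in both controls. Gjb2, a gap junction protein, was 430.5 against the floor in both controls but 1242 in wild type, and its call was lost under 2 of the 5 scalings.

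Further genes of keratinocytes outside the list were among the highest ratios. Lce3a, a further late envelope gene, was 2471 against the floor in both controls, at least 8.95-fold higher. Crct1, a cysteine-rich gene of the same skin cluster, was 1735 against the floor in both controls. Asprv1, a protease that processes filaggrin in skin, was 1793 against the floor in both controls. Dermokine (Dmkn), a secreted keratinocyte protein, was 1940.0 against 431 and 319.9, 5.22-fold higher. Adenosine deaminase (Ada), an enzyme of purine breakdown that is abundant in mouse oesophagus and forestomach, was 2329 against the floor in both controls, at least 8.43-fold higher. Each of these genes was named for its large ratio or bound, so its distance from both controls follows from that choice. The summed intensity of the 20 squamous markers was 35620 in hypoxia against 6538 and 6357, and 8029 in wild type. All 20 were above the floor in hypoxia, and 6 in each control. The array held 29 genes of the list, and those not measured were at the floor in hypoxia and in both controls. Members at the floor in both controls count as measured only through the hypoxic pool. The filter thus bears on these counts, on the sums and on the median of the list. The induced BMPR2delx4+ pool, the other pool with raised pressure, summed to 22077, with Krt4 at 3748 and Krt13 at 3333. The part of squamous tissue in other differences was not tested. Without the members of the squamous, skeletal muscle and cardiac lists the count over all genes was 1010 higher and 355 lower. That count drops list members only and keeps the keratinocyte genes named here outside the list, so it cannot size the part of squamous tissue. In whole lung, fewer cells of a type and less RNA per cell cannot be told apart.

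Promoters of the squamous genes were searched for TGAGTCA, the site of AP-1 factors, which act in keratinocyte differentiation. The motif was chosen after the values were seen. Among the 15 called genes, 10 had a RefSeq window on GRCm38.p6, from 250 bases before to 50 after a gene's start, and 4 of these (Krt13, Krtdap, Sprr1a and Lor) held TGAGTCA on either strand. The share was 5.95% over the 27025 genes of that promoter table. The motifs chosen beforehand were ACGTG, the E-box CACGTG and the cyclic AMP response element TGACGTCA. Each stood in 0 of the 10 genes, against 21.8%, 8.09% and 2.03% of all genes. The windows of 2 of the 4 genes with TGAGTCA are shown because both genes were at the floor in every normal-pressure pool. Krt13 is given for 1 of its 2 windows, at chr11:100120528-100120827 on the minus strand, and Krtdap at chr7:30787655-30787954 on the plus strand. Capitals mark TGAGTCA or its reverse complement, and a match is a description of letters, not of a bound site.
Krt13: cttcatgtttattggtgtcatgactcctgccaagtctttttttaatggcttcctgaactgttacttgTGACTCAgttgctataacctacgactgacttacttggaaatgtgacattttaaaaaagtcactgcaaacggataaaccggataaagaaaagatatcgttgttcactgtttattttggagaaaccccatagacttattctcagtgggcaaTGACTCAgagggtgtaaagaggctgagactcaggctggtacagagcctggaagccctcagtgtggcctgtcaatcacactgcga
Krtdap: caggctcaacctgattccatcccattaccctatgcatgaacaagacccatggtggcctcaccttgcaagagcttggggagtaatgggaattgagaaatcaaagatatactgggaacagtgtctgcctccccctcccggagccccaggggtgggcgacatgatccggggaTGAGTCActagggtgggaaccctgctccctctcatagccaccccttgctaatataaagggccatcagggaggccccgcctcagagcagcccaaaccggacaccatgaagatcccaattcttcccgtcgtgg

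Skeletal muscle genes were the next group. Of 17 measured members 14 were called higher, under each of the 5 scalings, and 0 lower, with a median of 1.25. Skeletal actin Acta1 was 5064 against 677 and the floor, at least 11.7-fold higher. The fast troponin subunit Tnni2 was 2367 against 379 and the floor and Tnnc2, its calcium-binding partner, was 1799 against the floor in both controls. Muscle creatine kinase (Ckm), which buffers ATP in contracting fibres, was 2590.1 against 799 and 530.0. Of these genes only Ckm was above the floor in wild type, at 575. The fast fibre light chains followed, Mylpf at 1032 against the floor in both controls and Myl1 at 1117 against 403 and the floor. Myh4, the heavy chain of the fastest fibres, lay between the controls at 1554 against 1929.8 and 1221, and Myh1, of a neighbouring fibre type, was 775 against the floor in both controls. The uninduced pool was above the activator pool for Acta1, Tnni2, Myl1 and Ckm, so the muscle genes also separated the controls. The 17 genes summed to 22536 in hypoxia against 8511 and 6948, and to 85164 in the induced pool, where Acta1 reached 10435. Every measured member was above the floor in hypoxia, 11 in the uninduced and 6 in the activator pool. The array held 23 genes of the list, and those not measured were at the floor in all 3 pools, so the same filter bears on these counts. Cardiac and slow muscle genes were mixed, 4 higher and 2 lower of 22, with a median of -0.0035. The counts were 2 higher and 3 lower with the values as deposited and with the shared median over all probe sets, and 3 and 3 after quantile normalization. Myoglobin (Mb), which both slow fibres and heart use to store oxygen, was 2410.3 against 1052 and 1139, and the slow light chain Myl3 was 1785 against 673 and 636. The heart-restricted troponin Tnni3 was lower at 460.0 against 787 and 979, and atrial Myl7 was 1390.2 against 1868 and 1815, which was not called.

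Gene lists of other tissues gave smaller differences. Of 14 adipose genes 4 were higher, among them the fat hormone resistin (Retn) at 579 against the floor in both controls and the carbonic anhydrase Car3 at 4805 against 1967 and 3533. Wild type was above hypoxia for Car3 (8361) and for 2 more of the called genes, the fatty acid binding protein Fabp4 (6266 against 2168) and Thrsp (2137 against 619), and the 14 adipose genes summed to 46553 in wild type against 24565 in hypoxia, 18925 and 22133. Of 8 kidney and adrenal genes 4 were higher (and 1 lower with the values as deposited). Kap, an androgen-regulated protein of proximal tubules, was 1255 against 555 and 483, and wild type stood far above at 6471. For all 4 of these genes (Kap, Fxyd2, Aqp2 and Cyp21a1) the hypoxic value lay between the controls and wild type. Apolipoprotein Apoa1 and transthyretin (Ttr), liver products, were the 2 called of 5 liver genes, with 625 against the floor and 376 for Apoa1 and 1244 in wild type.

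**Figure D2:**
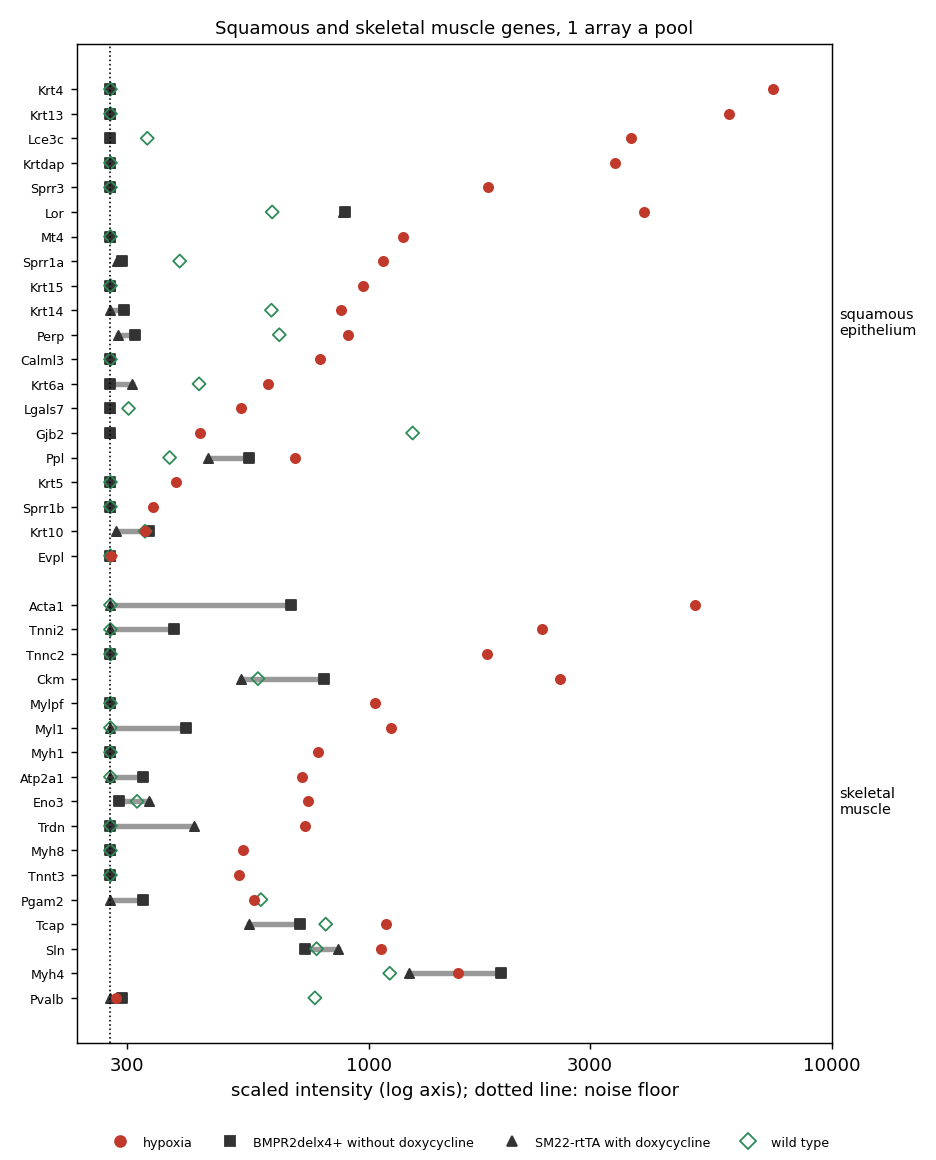
Scaled intensity (log axis) of every measured squamous epithelial (upper block) and skeletal muscle gene (lower block). Red circles are the hypoxic pool, dark squares and triangles the 2 controls joined by a grey bar, green diamonds wild type, and the dotted line the noise floor at 276.2. Most red circles lie to the right of the grey bars, and for Krt4, Krt13 and Krtdap every other pool drawn sits on the floor. The induced BMPR2delx4+ pool is not drawn and had 3748, 3333 and 2448 for these genes.

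Genes on the lists of glycolysis and of further HIF targets were mostly near the controls. Edn1 and Slc2a3, both called lower and described below, were on neither list. Of 13 measured genes of glycolysis 0 were called in either direction, with a median log2 ratio of 0.04 and members between -0.23 and 0.37. Of 19 further HIF targets 0 were called, with a median of -0.12 and a range from -0.58 to 0.55; 3 were lower with the values as deposited and 1 after quantile normalization. The share called over all measured genes was 17.4%, but brighter genes were called less often. The 2 lists had median hypoxic intensities of 1075 and 1104. Among genes above the floor in all 3 pools with mean intensity from 773 to 1324, 9.05% were called higher and 4.59% lower. Lactate dehydrogenase Ldha, which turns pyruvate to lactate, was 3778 against 4226 and 3679.7. Phosphoglycerate kinase Pgk1 was 2160.0 against 2456 and 1793, and the glucose transporter Slc2a1 was 658 against 646 and 491. Pgk1 and Ldha thus lay inside the range of the controls, and Slc2a1 only just outside it. The angiogenic factor Vegfa was 2186 against 2015 and 2107, above both by a small margin. Its other probe set lay between the controls, at 1246 against 1034 and 2210. Adrenomedullin (Adm), a vasodilator peptide, was at the floor against 428 and 396, a bound of -0.58 on the log2 scale that lay just short of the threshold. Higd1a, a mitochondrial protein of hypoxic survival, was 734 against 1107 and 1021. Heme oxygenase Hmox1 had the highest ratio of the list, 644 against 399.7 and 483, with 745 in wild type.

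Of 9 measured genes of the oxygen-sensing machinery 1 was called higher and 0 lower, with 6 above both controls, 0 below both and a median of 0.22; the counts called higher were 0 with the values as deposited and with the shared median over all probe sets and 2 after quantile normalization. Hif1a, the main inducible subunit, was 907 against 972 and 878. Epas1, the HIF subunit of endothelium, was 3212 against 1542 and 4613, so the controls lay far apart and enclosed the hypoxic value. Hif3a, a subunit that can damp the others, was the 1 called, at 632 against 395 and 365, a call lost under 2 of the 5 scalings. The prolyl hydroxylase Egln1, itself a HIF target, was 1382 against 1182 and 1186, and Egln2 was 2249 against 1719.6 and 1332; both were above each control without reaching the threshold. Egln3, a hydroxylase induced by HIF, was 284 against the floor in both controls.

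The ACGTG core stood in the promoter windows of 22 of the 28 glycolysis and HIF target genes that had one, 78.6%, against 21.8% of all genes in the table. On either strand the core lies within the E-box CACGTG, which 5 of the 28 held. The ACGTG core also stood in 10 of 20 immediate early genes with a window (50%) and 7 of 12 clock genes (58.3%), so it was not particular to the HIF targets. The Ldha window is shown because this gene is a standard HIF target whose hypoxic value lay between the controls, and the Edn1 window because endothelin was called lower. Ldha is given for 1 of its 2 windows, at chr7:46845554-46845853 on the plus strand, and Edn1 at chr13:42301226-42301525 on the plus strand; capitals mark ACGTG or its reverse complement, joined where they overlap.
Ldha: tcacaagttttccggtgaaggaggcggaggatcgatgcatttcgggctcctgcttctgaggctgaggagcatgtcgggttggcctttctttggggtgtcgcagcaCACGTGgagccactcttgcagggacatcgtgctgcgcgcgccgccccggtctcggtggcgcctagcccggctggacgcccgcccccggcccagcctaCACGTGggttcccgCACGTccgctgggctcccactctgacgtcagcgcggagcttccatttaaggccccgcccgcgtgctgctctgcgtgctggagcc
Edn1: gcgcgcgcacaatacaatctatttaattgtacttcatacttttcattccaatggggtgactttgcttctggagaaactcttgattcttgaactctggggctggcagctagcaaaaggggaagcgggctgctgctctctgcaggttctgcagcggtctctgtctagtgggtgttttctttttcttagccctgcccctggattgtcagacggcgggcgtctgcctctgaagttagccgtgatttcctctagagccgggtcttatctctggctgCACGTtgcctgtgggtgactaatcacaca

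**Figure D3:**
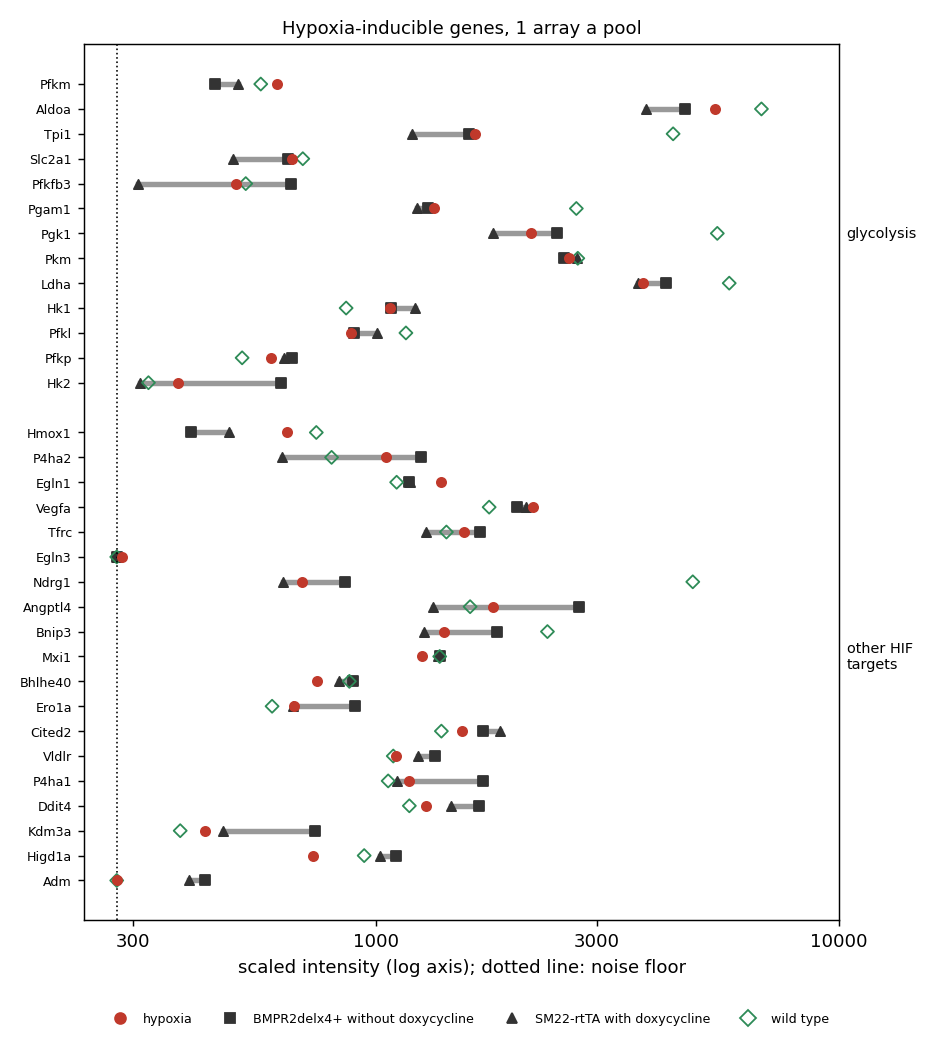
Scaled intensity (log axis) of the 13 measured glycolysis genes (upper block) and the 19 further HIF targets (lower block), with the hypoxic pool in red, the 2 controls as dark symbols joined by a grey bar, and wild type in green. The red circles lie within or near the grey bars for most genes, while wild type is to the right for several, such as Pgk1 and Ndrg1.

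Among vasoactive genes 1 was higher and 1 lower of 15. Endothelin-1 (Edn1), a constrictor peptide made by endothelium, was 1373 against 2662 and 1838, 1.61-fold lower, and wild type had 1648. All 3 normal-pressure pools were thus above the hypoxic pool. The natriuretic peptide receptor Npr1, which raises cyclic GMP, was 757 against 448 and 413, 1.76-fold higher, with 670.2 in wild type. The nitric oxide synthase of endothelium, Nos3, was 599 against 523 and 334 and was not called. The nitric oxide receptor subunit Gucy1b1 was 2238 against 1989 and 2160.5, above both by a small margin. Its partner Gucy1a1 was 1164 against 626 and 1847 and the clearance receptor Npr3 was 1489.7 against 2901 and 725, both enclosed by controls that lay far apart. The converting enzyme Ace was 4037 against 3674 and 3815 and prostacyclin synthase Ptgis was 2424 against 3010.4 and 2649.

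Endothelial markers were mostly not called. Of 26 measured members 4 were lower and 0 higher, with 13 below both controls and a median of -0.05; 8 were called lower with the values as deposited and with the shared median over all probe sets, and 5 with a median shared by the 3 arrays. Plvap, the protein of the diaphragms that span endothelial pores, was 2023 against 3881 and 3338, 1.78-fold lower. Lyve1, a hyaluronan receptor of lymphatic and some vascular endothelium, was 999 against 2434 and 1231. The receptor phosphatase Ptprb was 1585 against 3016 and 2045 and the fourth member was Edn1. For Plvap, Lyve1 and Edn1 wild type also lay above the hypoxic pool, and for Ptprb it lay below, at 1201. The adhesion protein Pecam1 was above both controls at 3228 against 2619 and 2539, and VE-cadherin (Cdh5) lay between them at 4546 against 4415 and 4724. The growth factor receptor Kdr was 2486 against 2847 and 4112, under the threshold of the call. The summed endothelial signal was 72174 in hypoxia against 82358 and 77510.

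Contractile genes of smooth muscle were near the controls, with 1 lower of 17 and a median of -0.10. The exception was calponin Cnn1 at 451 against 1254 and 572, where the uninduced control stood far above the rest and wild type was 322. Smooth muscle actin Acta2 was 3719.6 against 5234 and 3238 and Tagln, whose promoter is the SM22 promoter of the transgenes, was 2941 against 3633 and 2768. Both lay between the controls. Matrix genes gave 0 calls of 31, with a median of 0.03; 2 were called lower with the values as deposited and with the shared median over all probe sets and after quantile normalization, and 1 with a median shared by the 3 arrays. Elastin (Eln) was 2526 against 2018 and 2156, fibronectin (Fn1) was 3331 against 2807 and 2439.9 and the basement membrane collagen Col4a1 was 6661 against 5576 and 5068; these 3 were above both controls by less than the threshold. The fibrillar collagen Col1a1 lay inside at 1553 against 1299.6 and 1630.3. Of 15 pericyte and fibroblast genes 1 was higher and 1 lower. Rgs5, a G-protein regulator of pericytes, was 818 against 536 and 384 but 869.8 in wild type. Pi16, of adventitial fibroblasts, was 547 against 1222 and 1049.6; its other probe set had the opposite sign, and the mean of both gave 0.43. Igfbp3, a secreted binder of insulin-like growth factors, was at the floor against 921 and 961, at least 3.41-fold lower, and wild type had 919. It was 1 of the 13 genes at least 2-fold below each control, and all 3 normal-pressure pools were close to each other there.

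In BMP and TGF-beta signalling 2 genes were higher and 1 lower of 30, but 0 were higher and 3 lower with the values as deposited and with the shared median over all probe sets. Smad6, an inhibitor of BMP signalling, was 1744 against 2641 and 2817, 1.56-fold lower, though wild type was 1591, below the hypoxic value. Bmp7, a ligand, was 436 against the floor in both controls, with 465 in wild type, and Smad9, a receptor-regulated transducer, was 423 against the floor in both controls; both calls were lost under at least 2 of the 5 scalings. The BMP target Id1 was 3153 against 2759 and 2787 and Id3 was 2493 against 2226 and 2192, each above both controls by less than the threshold. The co-receptor endoglin (Eng) was 3106 against 4497 and 3865, also under the threshold. Bmpr2 itself was at the floor against the floor and 357, so its signal was too low to compare. The circulating ligand BMP9 (Gdf2), named after its values were seen, was 980.3 against 391 and 367, with 680.0 in wild type.

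Lung epithelial markers were near the controls. Of 20 alveolar type 2 markers 1 was called, with a median of 0.06, and of 11 alveolar type 1 markers 0, with a median of 0.04. Surfactant protein C (Sftpc) was 11858 against 11529 and 11161 and the type 1 receptor Ager was 6960.1 against 6538 and 7006. These defining markers, with the club cell secretoglobin Scgb1a1 at 11067 against 11202 and 11188, were far above the floor in all 3 pools, as the lung label of the tissue has it. The 1 called was the fatty acid binding protein Fabp5 at 4319 against 1619.5 and 1984, 2.41-fold higher, and wild type had 1271. Keratinocytes and macrophages also express Fabp5, and the part in it of the squamous markers described above was not tested. Among 15 airway secretory genes 3 were lower and 2 higher, and 4 and 1 with the values as deposited. The antimicrobial proteins Bpifa1 and Bpifb1 were lower, Bpifa1 at 703 against 1331 and 1008 and Bpifb1 at 405 against 708 and 547, and wild type stood above all of these at 2555 and 1176. Gsta3, a glutathione transferase of club cells, was 903 against 1758 and 1468, with 854 in wild type. Lactoferrin (Ltf), made by glands and neutrophils, was 818 against 411 and the floor, with 922 in wild type. Ciliated cell genes gave 2 higher of 5 and a median of 0.29, with all 5 above both controls. Foxj1, the master factor of motile cilia, was 1498 against 888 and 588, and the radial spoke gene Rsph1 was 785 against 519.7 and the floor. Slpi, a protease inhibitor of airway and oral secretions named after its values were seen, was 4364 against 1864 and 1822, 2.37-fold higher.

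Immune genes were called in both directions. Chil3 (Ym1), a chitinase-like protein secreted by alternatively activated macrophages, was 2807 against 439 and 1011, 4.22-fold higher, and 1459 in wild type. Hypoxia had the highest value of the 5 pools, and the normal-pressure pools spread widely below it. Ccl22, a chemokine of activated macrophages and dendritic cells, was 468 against the floor in both controls. Retnla (Fizz1), the other classic marker of alternative activation and a factor studied in hypoxic pulmonary hypertension, was 1695 against 1805 and 1402, between the controls. The interleukin receptor subunit Il13ra1 was lower, at 348 against 490.1 and 743, so that of 10 genes on the list 2 were higher and 1 lower (2 lower with the values as deposited). General macrophage genes were level: Csf1r, the receptor for the growth factor CSF1, was 2008 against 1923 and 1863. Of 18 such genes 2 were higher and 1 lower, 11.1% and 5.56%, near the 13.0% and 4.44% over all measured genes. The ligand Csf1 was 1005 against 476 and 514, 2.03-fold higher, by 1 of its 4 probe sets. Of the others, 1 was 390 against 382 and 396, and 1 was 447 against 461 and 423, so neither showed the difference. The monocyte co-receptor Cd14 was lower at 1064 against 2361 and 1134, and 629 in wild type, with the activator pool close to the hypoxic value.

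Of the interleukin-1 family 2 were higher of 9 and 0 lower. The receptor antagonist Il1rn, which blocks interleukin-1, was 1592 against 867 and 965, 1.74-fold higher, with 771 in wild type. Il18 was 835 against 307 and 615. Interleukin-1 beta (Il1b) itself was 693 against 2126 and 594, so only the uninduced pool was high. The neutrophil list gave 3 higher and 3 lower of 12, with a median of -0.33, and -0.67 and 0.00 against each control by itself. The counts were 2 higher and 4 lower with the values as deposited, with the shared median over all probe sets and after quantile normalization. A median shared by the 3 arrays gave 3 higher and 4 lower. The calprotectin subunits, cytosolic proteins of mature neutrophils, were far lower, S100a9 at 1020.1 against 6283 and 4095, 4.97-fold lower. S100a8 was 1719.6 against 7120.1 and 4672, 3.35-fold lower. The receptor Csf3r was 385 against 953 and 774. In wild type all 3 of these genes were at the floor, so the hypoxic value lay between wild type and the transgenic controls. The 3 called higher were the neutrophilic granule protein Ngp at 844 against 419.9 and 308, with 730.3 in wild type, Ltf as given above, and Mpo. Mpo, the myeloperoxidase, made in precursors, was 425 against the floor in both controls, a call lost under 3 of the 5 scalings. Clec4d, a lectin receptor of myeloid cells, was at the floor against 1006 and 393, at least 2.28-fold lower, and at the floor in wild type too. Selplg, the selectin ligand of leukocytes, was 431 against 969 and 1007, 2.29-fold lower, with 338 in wild type. The 12 neutrophil markers summed to 7814 in hypoxia against 18822 and 12720, and to 4768 in wild type, so the pools ranged widely; the part of neutrophil number in the other immune differences was not tested.

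Among 16 B and plasma cell genes 3 were higher and 4 lower, with a median of -0.22. Igha, the heavy chain of immunoglobulin A, was 453 against 2178 and 1624, 4.15-fold lower, and wild type was 1477. The joining chain Jchain, which links immunoglobulin A into dimers, was at the floor against 624 and 502. For both genes all 3 normal-pressure pools were above the hypoxic pool. The B cell surface protein Ms4a1 (CD20) was at the floor against 361 and 1277, so the bound rests mainly on the activator pool, and wild type was at the floor. Cd79b, of the B cell receptor, was at the floor against 302 and 844 and at the floor in wild type, and Cd79a was 427 against 385 and 1792 and was not called. Pax5, a factor of B cell identity, was higher at 547 against 321 and 277, against the direction of Ms4a1 and Cd79b. The 16 genes summed to 13284 in hypoxia against 14264 and 18903. Against each control by itself, the median of the list was 0.00 for the uninduced and -0.71 for the activator pool. The co-receptor Cd22 was 991 against 452 and 737, but the mean of its probe sets gave -0.16. Of 13 T and NK cell genes 5 were higher and 0 lower (3 higher under the values as deposited), with a median of 0.38. The co-receptor Cd4 was 869.6 against 336 and 304 and Cd8a was 737 against the floor and 323. The T cell kinase Zap70 was 1338 against 627 and 584, and wild type was at 1313, close to the hypoxic value. The CD3 chains, which define T cells, were not called: Cd3d was 344 against the floor and 407, Cd3g was 288 against the floor and 419.5 and Cd3e was 539 against 399 and 379.9. Interferon genes gave 1 higher of 17, Irf7 (and 1 lower with the values as deposited), and the antigen presentation genes 0 of 11.

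**Figure D4:**
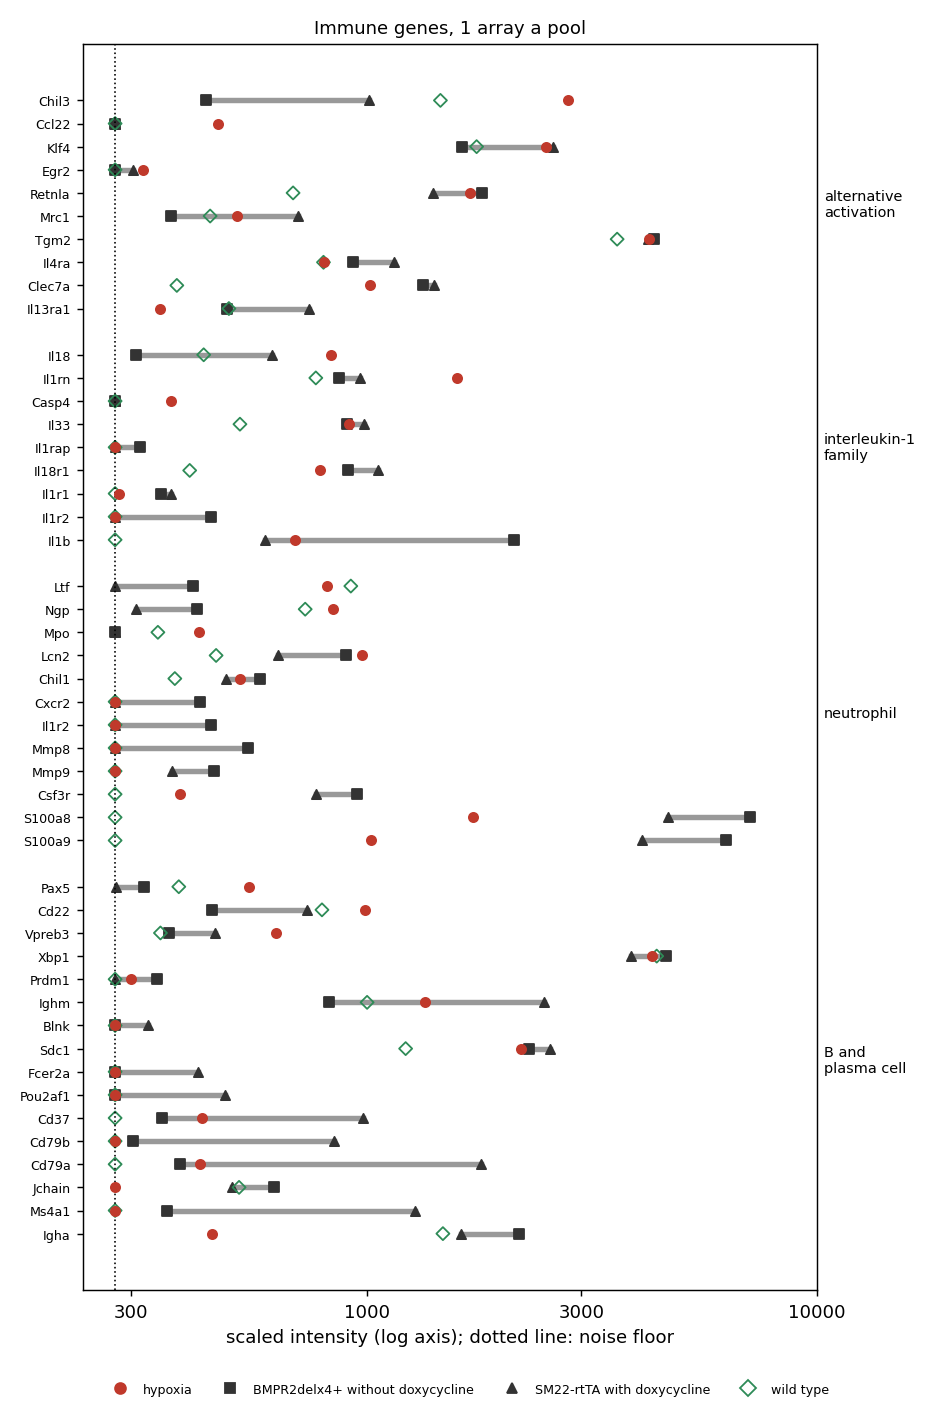
Scaled intensity (log axis) of measured immune genes in 4 blocks: alternative activation, interleukin-1 family, neutrophil, and B and plasma cell. Red circles (hypoxia) lie right of the grey bar of the controls for Chil3, Il1rn and Il18 and left of it for S100a8, S100a9, Igha and Jchain; wild type (green diamonds) is on the floor for S100a8 and S100a9.

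Red cell genes gave 4 higher and 0 lower of 13, with a median of 0.26. Ankyrin Ank1, of the membrane skeleton, was 1313 against 404 and 538, 2.82-fold higher, and the anion exchanger Slc4a1 was 821 against 411 and 344. The erythroid factor Klf1 was 535 against 336 and the floor. The heme enzyme Alas2, which is abundant in young red cells, was 1654 against 1491 and 2638, inside the range of the controls, so these markers did not move together. The platelet chemokine Ppbp was the 1 lower of 8 platelet genes (2 with the values as deposited), at 814 against 1275 and 1200.4, with 378 in wild type.

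Of 26 heat shock and chaperonin genes 4 were called lower and 0 higher, with 17 below both controls and a median of -0.21. With the values as deposited 7 were called lower. Hsph1, a large co-chaperone, was 672 against 2397 and 1035, 2.35-fold lower. The mitochondrial co-chaperonin Hspe1 was 778 against 1956 and 1164 and its partner Hspd1 was 1803 against 2957 and 2229, which was not called. The stress-inducible Hspa1b was 2019.5 against 4820.4 and 2618. For these genes the activator pool lay nearest to the hypoxic pool, and wild type was above every one of the 3 pools for Hspe1 (2638) and Hspa1b (6566). Dnajb4 was 1278 against 2157 and 2121, with 1227 in wild type, but its other probe set lay between the controls at 533 against 479 and 777. The unfolded protein response gave 3 higher and 2 lower of 22, which is 13.6% and 9.09% against 13.0% and 4.44% over all measured genes. The counts were 2 and 3 with the values as deposited and with the shared median over all probe sets. Quantile normalization gave 3 and 3. Herpud1 and Edem1, which help degrade misfolded proteins of the endoplasmic reticulum, were lower, Herpud1 at 1955 against 3194 and 2968. The other probe set of Herpud1 lay between the controls, at 2510 against 2768 and 2361. Chac1, Sesn2 and Trib3, targets of the amino acid stress factor ATF4, were higher, Sesn2 at 1159 against 479 and 707 and Chac1 at 653 against 338 and the floor. Trib3 lost its call under 2 of the 5 scalings. The chaperone Hspa5 (BiP) was 4762 against 6927 and 5745 and was not called.

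**Figure D5:**
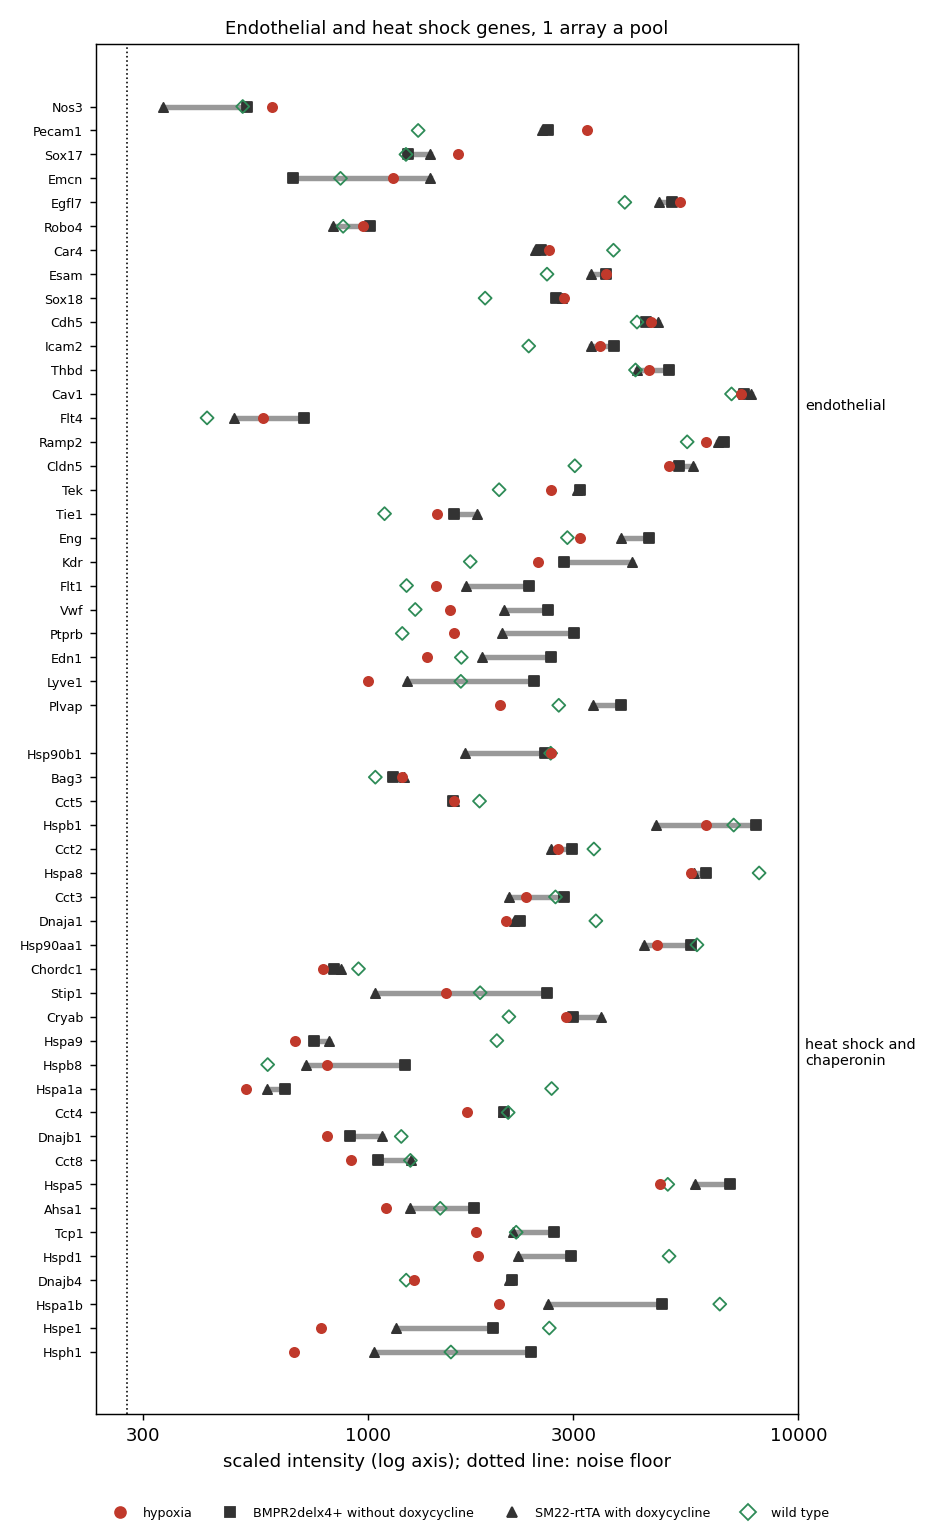
Scaled intensity (log axis) of endothelial (upper block) and heat shock and chaperonin genes (lower block), sorted by the log2 ratio of hypoxia over the mean of the controls. The hypoxic pool (red) lies left of both controls (dark symbols and grey bar) for 13 of 26 endothelial genes and 17 of 26 heat shock genes; wild type (green) is right of the bar for Hspa1b, Hspd1 and Hspe1.

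Immediate early genes, switched on within minutes by growth factors and by handling of tissue, gave 4 higher and 2 lower of 24, with a median of -0.0034. These counts are 16.7% and 8.33%, against 13.0% and 4.44% over all measured genes. They were 3 and 3 with the values as deposited, with the shared median over all probe sets and after quantile normalization. Junb, an AP-1 subunit, was 2482 against 1432 and 1174, 1.91-fold higher, and the nuclear receptor Nr4a1 was 4059 against 2427 and 2153. All 3 normal-pressure pools were below the hypoxic pool for both genes. Fos was 3981 against 4517 and 3079 and Egr1 was 2550.3 against 3839.8 and 1922, both between the controls. The stress factor Atf3 was lower at 332 against 415 and 728, as was Gadd45g at 318 against 607 and 554. Of the clock genes 1 of 14 was lower: Rora, an activator of the loop, was 506 against 983 and 787, with 1 of its 3 probe sets of the opposite sign. Dbp, an output gene of the clock, was 791 against 1303 and 373, so the controls differed from each other more than hypoxia did from their mean. Fkbp5, a marker of glucocorticoid action, separated the controls in the same way, at 667 against 1117 and 279, and 0 of 20 glucocorticoid-responsive genes were called (2 lower with the values as deposited and with the shared median over all probe sets).

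In metabolism, 0 of 37 oxidative phosphorylation genes were called, with a median of -0.01 and a range from -0.53 to 0.27; 2 were called lower with the values as deposited and with the shared median over all probe sets. The ATP synthase subunit Atp5a1 was 5585 against 5266 and 6052. Fatty acid oxidation gave 1 lower of 19, the carnitine transferase Cpt2 at 304 against 555 and 412. Of 13 genes of cholesterol synthesis 2 were higher, Mvk and Nsdhl, and both calls were lost under 2 of the 5 scalings. Among 29 antioxidant and detoxification genes 1 was higher and 1 lower; the number lower was 4 with the values as deposited and with the shared median over all probe sets, 3 after quantile normalization and 2 with a median shared by the 3 arrays. The aldehyde dehydrogenase Aldh3a1, which is abundant in cornea and in upper digestive epithelium, was 1686 against 795 and 516, 2.63-fold higher, and the part of the squamous markers in it was not tested. The carbonyl reductase Cbr3 was lower at 391 against 751 and 483, and at the floor in wild type.

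Proliferation genes gave 2 higher of 10, against a share of 13.0% over all measured genes. Cyclin A2 (Ccna2) was 581 against 314 and 289.7 and the spindle protein Prc1 was 509 against 327 and the floor, while wild type had 537 and 530.2, close to the hypoxic values. The replication clamp Pcna was 1855 against 1909 and 2201, below both controls. Foxm1, a factor that drives mitotic genes, was 1557 against 564 and 346 and 1161 in wild type. That difference came from 1 of its 4 probe sets. The others were 293, 308 and the floor in hypoxia, against the floor in both controls. The kinase gene Pim1 was 2166 against 800.0 and 495 and 1436 in wild type; 1 of its 2 probe sets had the opposite sign. The potassium channel subunit Kcnab3 was 1754 against 395 and 505 and 1403 in wild type, and its other probe set also had the opposite sign. For these 3 genes the wild-type pool was, on the log2 scale, nearer to hypoxia than to either transgenic pool. Sp6, a zinc finger factor of skin and tooth, was 1385 against 464 and 443. Cpa1, a pancreatic carboxypeptidase, was 1519 against 517 and 503. The secreted signal Wnt6 was 919 against 324 and 313.

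The lowest ratios outside the immune lists were of varied function. Btbd2, a BTB domain protein, was 307 against 1015 and 646, 2.64-fold lower, and it was at the floor in wild type. The cytoskeletal phosphatase Ptpn21 was 307 against 975 and 642. Palladin (Palld), a scaffold of actin filaments, was 710.0 against 1369.8 and 2143, 2.41-fold lower, and 1206 in wild type. The glucose transporter Slc2a3 was 295 against 878 and 515, 2.28-fold lower, and at the floor in wild type. Synaptopodin (Synpo) and tropomodulin (Tmod1), both actin regulators, were 344 against 844 and 661 and 325 against 588 and 869, with 297 and the floor in wild type. The chloride-proton exchanger Clcn3 was at the floor against 704 and 692, with 1006 in wild type, so all 3 normal-pressure pools exceeded hypoxia. The zinc transporter Slc39a4 was 351 against 745 and 763, with 316 in wild type. For Btbd2, Slc2a3, Synpo, Tmod1 and Slc39a4 wild type was thus below the hypoxic pool.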

How the data were processed

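Whole-lung RNA of 5 conditions was measured on 5 one-colour arrays, 1 pool and 1 array for each, and groups were read from the titles. Per the deposited table, values are linear intensities, 1 for each of 22626 probe sets and none under 50; how the authors summarised, background-corrected and scaled them is not given in the sources used here. Log2 intensities were shifted to a common median over those 9046 probe sets that exceeded the 50th percentile in each array (shifts of 0.08 for hypoxia, -0.07 for BMPR2delx4+ without doxycycline and -0.11 for SM22-rtTA). Values below the 50th percentile of all shifted values were set to that floor.

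Gene names came from the platform annotation, brought up to date through gene IDs in a RefSeq table on GRCm38.p6: 20380 had 1 gene (20351 matched by ID), 691 several and 1555 none. The probe set with the highest mean stood for its gene; 4956 of 12393 genes had more than 1.

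Named genes were the 20 called in each direction with the ratio farthest from 0 above the floor in all 3 pools, predicted loci left out, the 10 largest bounds in each direction, and every called member of 43 gene lists (the 2 of highest mean where none was called), 179 in all, of which the text gives a part. Members of the lists that were not called, Slpi and Gdf2 were named after their values were seen. The comparison and the lists were chosen with earlier results of these data known. Of the 164 called, 8 had a further probe set of opposite sign. The code that makes the calls was tested on simulated data, which gives no error rate for the calls themselves. Alternatives covered scaling, floor, fold, gene summary and control pools. Python 3.11.15, numpy 2.4.6, pandas 2.3.3 and matplotlib 3.10.9 were used.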

Additional observations from a re-analysis of the deposited data

How the results depend on the processing

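Counts of calls, higher and lower, moved as follows from 1043 and 357. Lower calls were 854 with values as deposited and 853 with a shared median over all probe sets. They were 1988 and 588 with the floor at the 30th percentile, 397 and 135 at the 70th, and 3036 and 740 with no floor; a pseudocount of 100 in place of the floor gave 1630 higher. At 2-fold from the control mean they were 314 and 37. The mean of a gene's probe sets gave 664 higher, and each probe set by itself 626 lower. The uninduced control alone gave 621 lower, 1.5-fold beyond the nearer control 174 lower, and wild type added to the controls 639 higher. Of the alternatives chosen after seeing the data, 1.5-fold beyond each of the 3 normal-pressure pools gave 157 and 48, being beyond wild type too left 218 lower, and leaving out genes at the floor in any of the 3 pools left 649 higher.

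At 2-fold beyond each control, from 219 and 13, counts were 113 and 36 as deposited, 114 and 35 with a median over all probe sets, 24 lower after quantile normalization, 476 and 43 and 89 and 3 with the lower and higher floor, 816 and 86 with no floor, 136 higher with the mean of probe sets and 25 lower with each probe set by itself. Genes at least 1.5-fold apart between the controls, 645, numbered 1003, 311 and 1568 with the lower floor, the higher floor and none, and 1328 probe sets.

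The mean of probe sets reversed Lor (-0.15), Pi16 (0.43) and Cd22 (-0.16), and adding wild type to the controls reversed Gjb2 (-0.083), Thrsp (-0.078), Cyp21a1 (-0.067) and Fxyd2 (-0.11). Of the other values of named genes under the alternatives, 1809 moved by less than 0.34, the SD of log2 between the controls, and 332 by more. The cause of these changes was not tested.

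No paired analysis was possible because each condition has 1 array. With 1 pool for each condition neither the spread between animals nor between arrays can be measured, and low signals are limited by the floor, since 224 of the higher calls rest on both controls being at it and 170 on 1 control.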

Other observations

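Probe sets with several genes or none listed were left out of every count above. Of 1104 such probe sets that were above the floor in at least 1 of the 3 pools, 156 met the rule for higher and 42 the rule for lower. Of the 675 called genes with more than 1 probe set, 135 had another probe set of the opposite sign.

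A single control gave other lists of the same kind. At 1.5-fold, 1093 genes were higher and 621 lower than in the uninduced pool, and 1107 higher and 432 lower than in the activator pool. At 2-fold from the mean of both, 314 genes were higher and 37 lower, and at 4-fold 18 and 2.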
